A study of Mus musculus with 4 samples.

Results

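The genes described here are 10 markers of the epithelial and the mesenchymal state, chosen by name: Cdh1, Epcam, Cldn6, Krt8, Krt18 and Esrp1 on the epithelial side and Cdh2, Vim, Snai1 and Zeb1 on the mesenchymal side. All 10 were found among the 47633 genes of the deposited table, and all 10 reached the level needed for testing, at which 15676 genes were tested. Transcripts were measured by sequencing total RNA of mouse embryonic stem (ES) cells and of cells derived from them, all of the strain 129S2/SvPas. The LIF-withdrawal library (n = 1) came from ES cells deprived for 2 days of leukaemia inhibitory factor (LIF), the cytokine that holds mouse ES cells undifferentiated. The embryoid body library (n = 1) is labelled as embryoid bodies, aggregates of differentiating cells, made by LIF withdrawal for 5 days. The ES libraries (ES 1 and ES 2, n = 2) came from cells grown with LIF. The ES cells were grown on embryonic fibroblasts of C57/BL6 mice, treated with mitomycin C so that they do not divide, and fibroblast RNA can thus be present in a library.

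Epithelial cells are held together by adherens junctions, in which E-cadherin (Cdh1) binds its like on the next cell, and by tight junctions built from claudins. In the epithelial to mesenchymal transition, transcription factors such as SNAI1 and ZEB1 bind E-box sequences in the promoters of epithelial genes and repress them, and N-cadherin (Cdh2) and vimentin (Vim) become abundant. Mouse ES cells grow as compact colonies and carry E-cadherin, and loss of E-cadherin is a known step when the epiblast forms mesoderm.

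Promoters of these genes are shown because the repressors act there. They were searched for the 6-base E-box CAGGTG, which reads CACCTG on the other strand. RefSeq promoters (build GRCm38.p6, the mm10 assembly) running from 250 bases before to 50 after the start were searched for 6 of the 10 genes. Those of Cdh1 and Esrp1 were not found. Those of Cdh2 and Zeb1 were left out of the search, so their E-boxes are not known here. The mesenchymal side therefore rests on Vim and Snai1 alone, too few to set against the epithelial side. All 4 matched epithelial promoters hold at least 1 E-box, against 20.2% of 32851 promoters of the same length. Those of Epcam and Cldn6 hold 2 each, and 2.88% of all promoters hold 2 or more. Capitals mark the E-box in the lines that follow, each written 5′ to 3′ on the strand of its gene, at chr17:87635729-87636028, plus strand, for Epcam, chr17:23679115-23679414, plus strand, for Cldn6, chr15:102004293-102004592, minus strand, for Krt8 and chr15:102027966-102028265, plus strand, for Krt18. The promoter of the mesenchymal gene Vim (chr2:13574061-13574360, plus strand) is also printed and holds none. That of Snai1, the other mesenchymal gene searched, is not printed and holds 1.
Epcam: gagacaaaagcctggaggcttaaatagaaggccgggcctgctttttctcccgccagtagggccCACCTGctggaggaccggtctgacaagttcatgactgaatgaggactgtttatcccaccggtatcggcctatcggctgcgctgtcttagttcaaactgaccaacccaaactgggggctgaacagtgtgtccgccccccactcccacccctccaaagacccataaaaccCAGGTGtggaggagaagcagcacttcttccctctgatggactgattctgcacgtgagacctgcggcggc
Cldn6: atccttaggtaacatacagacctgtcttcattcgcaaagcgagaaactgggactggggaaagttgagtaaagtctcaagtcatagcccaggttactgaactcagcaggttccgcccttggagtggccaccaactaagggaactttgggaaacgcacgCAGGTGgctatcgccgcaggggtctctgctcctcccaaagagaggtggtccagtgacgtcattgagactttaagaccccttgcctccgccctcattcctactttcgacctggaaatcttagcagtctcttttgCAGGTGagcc
Krt8: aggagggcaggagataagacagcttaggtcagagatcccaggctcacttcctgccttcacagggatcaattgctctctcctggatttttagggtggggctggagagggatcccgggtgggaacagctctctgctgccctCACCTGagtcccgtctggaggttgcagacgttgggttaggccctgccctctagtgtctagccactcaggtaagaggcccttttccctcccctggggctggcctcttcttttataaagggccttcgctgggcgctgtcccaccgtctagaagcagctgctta
Krt18: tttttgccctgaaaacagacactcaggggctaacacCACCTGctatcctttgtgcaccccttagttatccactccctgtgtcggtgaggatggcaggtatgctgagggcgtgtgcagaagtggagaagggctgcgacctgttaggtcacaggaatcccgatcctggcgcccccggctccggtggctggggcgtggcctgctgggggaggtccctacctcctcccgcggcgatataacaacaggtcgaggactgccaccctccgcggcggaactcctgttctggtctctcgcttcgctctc
Vim: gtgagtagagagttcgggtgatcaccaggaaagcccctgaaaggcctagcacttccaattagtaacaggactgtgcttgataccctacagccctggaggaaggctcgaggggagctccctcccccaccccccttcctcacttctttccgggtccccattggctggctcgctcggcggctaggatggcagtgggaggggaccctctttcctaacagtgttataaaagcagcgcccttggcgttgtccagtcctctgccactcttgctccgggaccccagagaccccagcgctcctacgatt
The E-boxes begin 187 and 19 bases before the start of Epcam, 93 before and at base 41 after the start of Cldn6, 111 before that of Krt8 and 214 before that of Krt18. The E-box in the promoter of Snai1 begins 126 bases before its start. A match describes the letters and is not a measured binding site.

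Cdh1 and Epcam stayed abundant in all 4 libraries, and the largest differences from ES cells were those of the mesenchymal genes Vim, Zeb1 and Cdh2. Vim was at 123 FPKM after LIF withdrawal and 41.2 FPKM in the embryoid body library, against 101 and 102 FPKM in ES 1 and ES 2. Cdh2 was at 16.7, 5.85, 9.84 and 10.9 FPKM in the same order. Cdh1 stayed between 61.0 and 80.2 FPKM and Epcam between 38.3 and 43.9 FPKM. FPKM counts fragments relative to transcript length and to the total of the library, so levels of different genes can be set side by side.

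**Figure D1:**
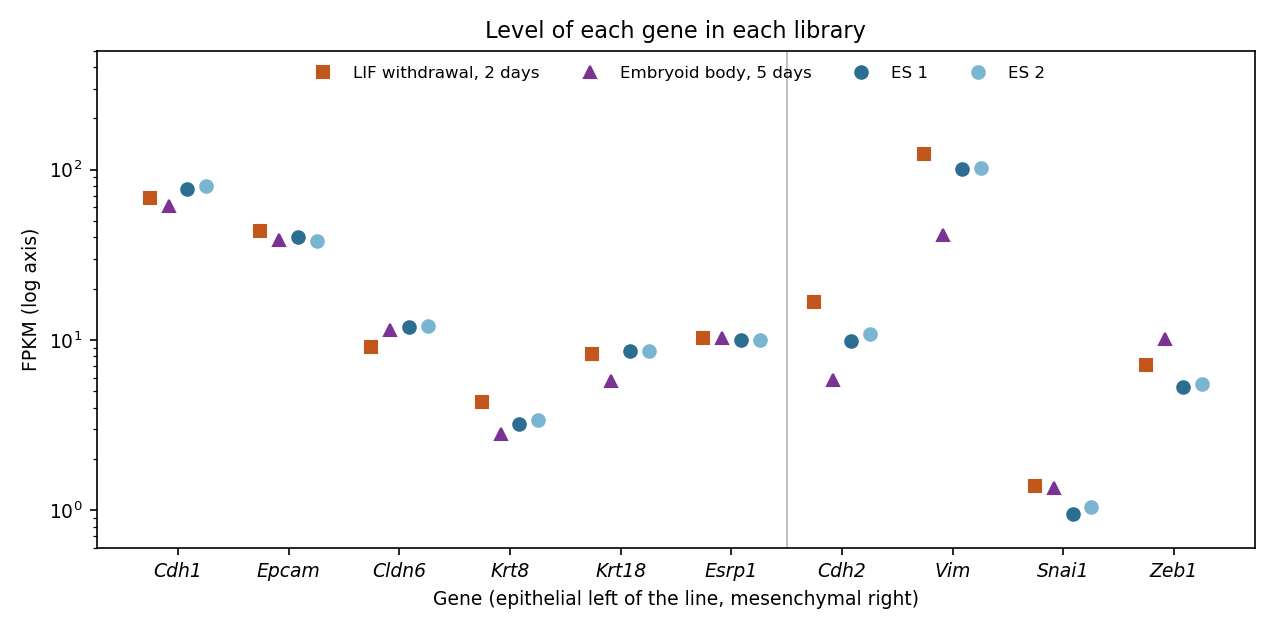
FPKM of each gene (log axis) in the LIF-withdrawal library, the embryoid body library, ES 1 and ES 2, 1 point per library. Vim and Cdh2 in the embryoid body library sit below both ES libraries, at 41.2 and 5.85 FPKM, and Zeb1 sits above them at 10.1 FPKM.

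The libraries were checked against markers of the cells they could hold. All 8 pluripotency markers were at 1 FPKM or more in every library. They summed to 2343 FPKM after LIF withdrawal and 2698 FPKM in the embryoid body library, against 2154 and 2158 FPKM in ES 1 and ES 2. After LIF withdrawal 3 lay above both ES libraries and 4 below, and in the embryoid body library 5 above and 3 below. The primitive endoderm markers Afp and Ttr were each at or near 0 in every library, and 6 of the 8 markers of that list stayed under 1 FPKM throughout, also in the embryoid body library. The 6 trophoblast markers summed to 6.08 and 13.0 FPKM in the derived libraries, against 6.71 and 5.84 FPKM in ES 1 and ES 2, and the 5 mesoderm markers to 4.38 and 2.46 FPKM, against 3.14 and 3.04 FPKM. The 20 fibroblast markers summed to 551 FPKM after LIF withdrawal and 407 FPKM in the embryoid body library, against 351 and 347 FPKM in the ES libraries. The LIF-withdrawal library stood apart in composition. Its 10 highest genes held 44.7% of its FPKM sum, against 9.80% to 17.4% in the other libraries. The implied depth was 18.1 M fragments after LIF withdrawal and 26.4 M in the embryoid body library, against 31.5 M and 26.4 M in ES 1 and ES 2. Cdh1, for example, rested on 5669 fragments there and 7381 in the embryoid body library, against 11133 and 9705 in ES 1 and ES 2. In bulk RNA, fewer cells of a type and less RNA per cell cannot be told apart.

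The order of levels in ES cells ran from Vim at 102 ± 0.636 FPKM (SD, n = 2) and Cdh1 at 78.8 ± 2.00 FPKM down to Snai1 at 0.996 ± 0.0658 FPKM. Epcam followed at 39.3 ± 1.37 FPKM, and Cldn6 at 12.0 ± 0.155 FPKM. Cdh2 (10.4 ± 0.741 FPKM) and Esrp1 (9.99 ± 0.0296 FPKM) did not differ beyond the spread of Cdh2 between the ES libraries. Krt18 stood at 8.59 ± 0.00139 FPKM, Zeb1 at 5.38 ± 0.145 FPKM and Krt8 at 3.30 ± 0.151 FPKM. Among all genes of the table, Vim ranked 678th after LIF withdrawal and 2309th in the embryoid body library, against 878th and 861st in the ES libraries. Cdh1 ranked 1354th and 1493rd in the derived libraries, against 1200th and 1153rd in the ES libraries.

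The first comparison asked how these genes stood after 2 days without LIF. Changes are on the log2(FPKM + 1) scale, which understates those of low genes. By limma over all tested genes, with a call at adjusted p under 0.05 and an absolute log2 change of at least 1, 0 of the 10 genes were called, where 7.67% of all genes were. At unadjusted p under 0.05 the count was 6 of 10, where it was 37.2% of all genes. Outside the range of the ES pair lay 10 of 10, 7 above and 3 below, where 85% of all genes lay outside, 48.4% above and 36.6% below. By size without a test, 0 of 10 lay 2-fold or more away from each ES library, where 9.68% of all genes were. The median log2 change of the 10 genes was 0.21, against 0.04 for all genes. The p-values measure the spread between the ES libraries alone, which may be technical, since the labels do not say that ES 1 and ES 2 are separate cultures.

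Of the cadherins, Cdh2 was at 16.7 FPKM after LIF withdrawal, against 9.84 and 10.9 FPKM in ES cells, above both ES libraries. This was the largest change of the 10 genes in this comparison, 0.64 on the log2 scale (SE 0.10, limma adjusted p = 0.104), and 85.3% of all genes had a lower one. Cdh1 was at 68.6 FPKM, against 77.4 and 80.2 FPKM, below both ES libraries (log2 change -0.20, SE 0.04, limma adjusted p = 0.129). The ratio of Cdh1 to Cdh2 was therefore 4.11 after LIF withdrawal, against 7.87 and 7.37 in the ES libraries. A ratio within a library does not depend on how the library is scaled. Cdh2 lies on chromosome 18, minus strand, and Cdh1 (ENSMUSG00000000303.12) on chromosome 8, 106603351 to 106670246, plus strand.

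Vim, the intermediate filament protein of mesenchymal cells, was at 123 FPKM after LIF withdrawal, against 101 and 102 FPKM in ES cells, which is higher by 0.27 on the log2 scale (SE 0.02, limma adjusted p = 0.0676). Zeb1 was at 7.07 FPKM, against 5.27 and 5.48 FPKM (0.34, SE 0.06, adjusted p = 0.116). Snai1 was at 1.39 FPKM, against 0.949 and 1.04 FPKM, but the 41 fragments behind the first value give a 95% Poisson interval of 0.996 to 1.88 FPKM, which holds the ES 2 value and lies just above that of ES 1. These 3 genes and Epcam, Krt8 and Esrp1 lay above both ES libraries as deposited, and all 6 lay below the ES mean when each library was divided by its FPKM sum, which moves the median log2 change of all genes to -0.51. Cdh2 stayed above it there, with a log2 change of 0.05. Scaled by the FPKM sum without the 10 highest genes, 7 of the 10 genes lay above both ES libraries and 3 below. The median of all genes was then 0.08.

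Among the remaining epithelial genes, the tight junction gene Cldn6 was at 9.08 FPKM after LIF withdrawal, against 11.9 and 12.1 FPKM in ES cells. Of the 10 genes it had the lowest change, -0.36 on the log2 scale (SE 0.04, limma adjusted p = 0.0864). Epcam, a cell adhesion molecule of epithelia and of ES cells, was at 43.9 FPKM, against 40.3 and 38.3 FPKM (0.15, adjusted p = 0.203). Esrp1, a splicing factor that makes the epithelial forms of transcripts, was at 10.2 FPKM, against 9.97 and 10.01 FPKM, a log2 change of 0.03 (adjusted p = 0.632). Its 95% Poisson interval of 9.65 to 10.8 FPKM holds both ES values. Splice forms were not measured, because the table has 1 value per gene.

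Krt8 and Krt18 encode the keratins that pair into the first intermediate filaments of simple epithelia. Krt8 was at 4.33 FPKM after LIF withdrawal, against 3.19 and 3.40 FPKM in ES cells (0.31, SE 0.07, adjusted p = 0.145). Its partner Krt18 was at 8.27 FPKM, against 8.58 and 8.59 FPKM (-0.05, adjusted p = 0.536). The ES values of Krt18 agree more closely than their Poisson intervals of 7.75 to 9.48 FPKM and 7.68 to 9.57 FPKM, so the spread of this pair understates the counting error. The 2 genes are neighbours on chromosome 15, with Krt8 at 101996698 to 102004482 on the minus strand and Krt18 at 102028180 to 102032027 on the plus strand, 23.7 kb apart with 0 annotated genes between them. The ratio of Krt18 to Krt8 was 1.91 after LIF withdrawal and 2.06 in the embryoid body library, against 2.69 and 2.52 in the ES libraries.

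**Figure D2:**
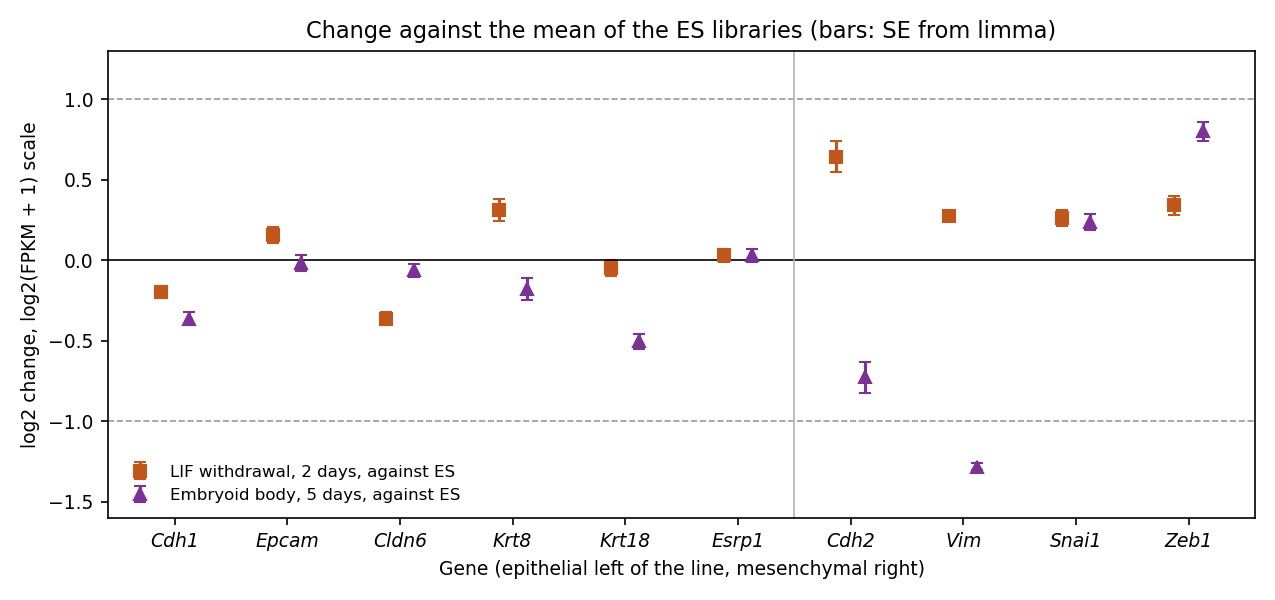
Log2 change of each gene on the log2(FPKM + 1) scale in the LIF-withdrawal library (squares) and the embryoid body library (triangles) against the mean of the ES libraries, which both comparisons share. Bars are the limma standard error, and dashed lines mark a log2 change of 1. Vim in the embryoid body library is the only point beyond a line, at -1.28.

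The second comparison set the embryoid body library against ES cells. Limma called 0 of the 10 genes over all genes tested, where 0.396% of genes were called, all of them higher. At unadjusted p under 0.05 the count was 5 of 10, where it was 27.7% of all genes. By size without a test, 1 of 10 lay 2-fold or more away from each ES library, where 2.37% of all genes were, and 0.734% were lower, and that gene was Vim. Outside the range of the ES pair lay 9 of 10, 3 above and 6 below, where 80.5% of all genes lay outside, 37.6% above and 42.9% below. The median log2 change of the 10 genes was -0.12, against -0.01 for all genes.

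Vim was at 41.2 FPKM in the embryoid body library, against 101 and 102 FPKM in ES cells. The ES libraries lay close together and the embryoid body library far below them, at 0.405 of their mean. The log2 change was -1.28 (SE 0.02, limma adjusted p = 0.0969 over all genes), and 0.848% of all genes had a lower one. When genes under 1 FPKM were kept in the test, Vim was called lower (limma adjusted p = 0.0302). In that fit 138 of 26187 genes were called in either direction, 104 of them higher. A second fit was limited to strand-clear genes, protein-coding or long non-coding genes of at least 1000 nt that lie outside every gene on the opposite strand. There 6 of the 10 genes were tested and 1 was called, Vim, which fell (adjusted p = 0.0176), where 0.778% of those genes were called lower and 2.31% in either direction. Cdh1 and Krt18 had adjusted p-values of 0.0464 and 0.0432 there, with log2 changes of -0.36 and -0.50, short of the size needed for a call. In the LIF-withdrawal comparison 0 of the 6 were called in that set (4 at unadjusted p under 0.05, where 42.8% of that set were), where 3.04% were called. Cdh2, Krt8, Esrp1 and Zeb1 are outside this set, since each overlaps an annotated gene on the opposite strand, with 5.16% of exon length shared at most, for Krt8. The use of strand in counting is not given in the sources used here, so reads of such pairs cannot be told apart. This set was chosen with earlier results of its calls known, so it is no independent support. Vim (ENSMUSG00000026728.9) lies on chromosome 2, 13573927 to 13582826, plus strand.

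Cdh2 was also below both ES libraries, at 5.85 FPKM in the embryoid body library, against 9.84 and 10.9 FPKM. Its log2 change was -0.73 (SE 0.10, limma adjusted p = 0.147), and 3.09% of all genes had a lower one. Cdh1 was at 61.0 FPKM, against 77.4 and 80.2 FPKM (-0.36, SE 0.04, adjusted p = 0.141). Both cadherins were thus lower than in either ES library, and the ratio of Cdh1 to Cdh2 was 10.4, against 7.87 and 7.37. The ratio of Cdh1 to Vim was 1.48, against 0.764 and 0.785 in the ES libraries.

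**Figure D3:**
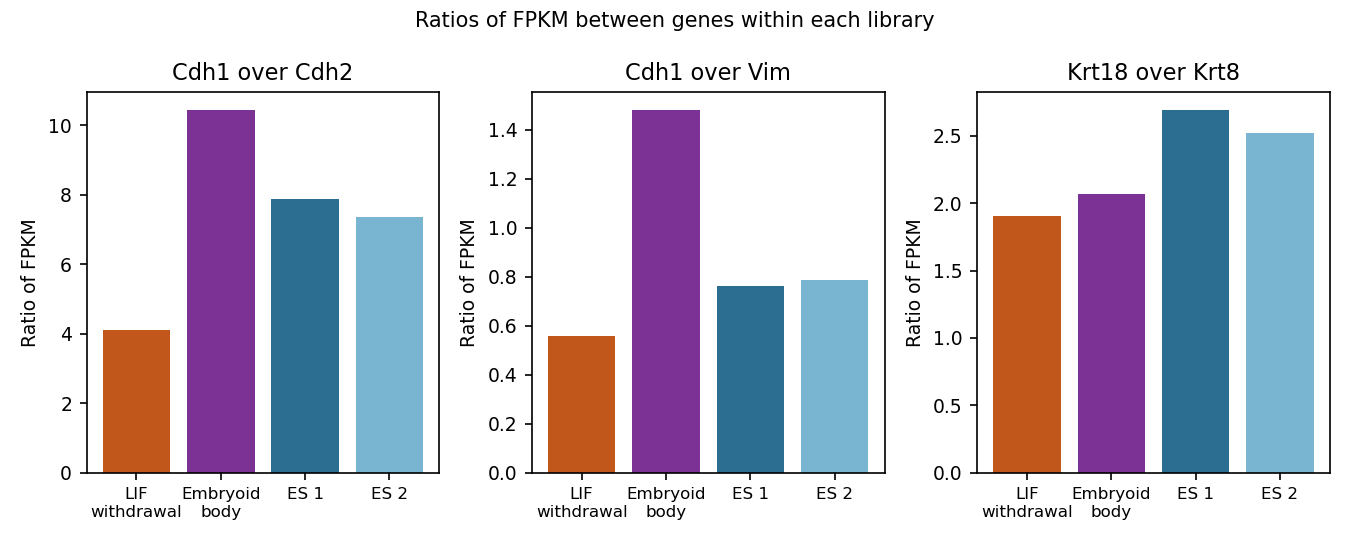
Ratio of Cdh1 to Cdh2, of Cdh1 to Vim and of Krt18 to Krt8 in FPKM, within each library, with axes from 0. The embryoid body library has the highest Cdh1 to Cdh2 ratio, 10.4, and the LIF-withdrawal library the lowest, 4.11.

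Zeb1, a zinc finger and homeodomain repressor of Cdh1, was at 10.1 FPKM in the embryoid body library, against 5.27 and 5.48 FPKM in ES cells. It lay well above both ES libraries, 0.80 higher on the log2 scale (SE 0.06, limma adjusted p = 0.139), and 95.3% of all genes had a lower one. Snai1, a zinc finger repressor of the same targets, was at 1.35 FPKM, against 0.949 and 1.04 FPKM (0.24, adjusted p = 0.182). Its 95% Poisson interval of 1.03 to 1.75 FPKM, from 58 fragments, holds the ES 2 value. Zeb1 thus lay above both ES libraries in the same library in which Cdh1 and Vim lay below them. Zeb1 overlaps Gm10125 on the opposite strand, with 198 nt or 1.93% of its exon length shared, and Gm10125 was at 0.348 FPKM at most.

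Krt18 was at 5.76 FPKM in the embryoid body library, against 8.58 and 8.59 FPKM in ES cells, a difference of -0.50 on the log2 scale (SE 0.05, limma adjusted p = 0.139). Its 95% Poisson interval of 5.03 to 6.58 FPKM did not reach those of the ES libraries. Krt8 was at 2.79 FPKM, against 3.19 and 3.40 FPKM (-0.18, adjusted p = 0.291), and its interval of 2.36 to 3.28 FPKM held the lower ES value. The remaining epithelial genes lay near the ES libraries. Epcam was at 38.8 FPKM, between the ES values of 40.3 and 38.3 FPKM (-0.02, adjusted p = 0.865, and 0.017 with median-of-ratios scaling). Cldn6 was at 11.4 FPKM, against 11.9 and 12.1 FPKM (-0.06, adjusted p = 0.442), and Esrp1 at 10.2 FPKM, against 9.97 and 10.01 FPKM (0.03, adjusted p = 0.686, and -0.062 after division by the FPKM sum).

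The derived libraries were then set against each other, with 1 library on each side and so no test. Of the 10 genes 2 were at least 2-fold apart, where 14.9% of all genes were, and both were lower in the embryoid body library, as 10.1% of all genes were. Vim was at 41.2 FPKM there, against 123 FPKM after LIF withdrawal (log2 difference -1.55). Cdh2 was at 5.85 FPKM there, against 16.7 FPKM after LIF withdrawal (-1.37, and -0.91 after division by the FPKM sum). Zeb1 was at 10.1 FPKM in the embryoid body library, against 7.07 FPKM after LIF withdrawal (0.46). Vim, Cdh2 and Krt8 lay above both ES libraries after LIF withdrawal and below both in the embryoid body library, as 16.8% of all genes did, but Vim and Krt8 were below the ES mean in both after division by the FPKM sum. Cdh1, Epcam, Esrp1 and Snai1 differed by 0.17 or less on the log2 scale, Krt8 and Krt18 by -0.49 and -0.45, and Cldn6 by 0.30. These values depend on the scale, since division by the FPKM sum moves the median log2 difference of all genes to 0.40, against -0.08 as deposited. It gave differences of 0.37 for Cdh1, 0.36 for Epcam, 0.51 for Esrp1, 0.33 for Snai1 and 0.021 for Krt18, all with the sign turned. It gave -0.076 for Krt8, 0.81 for Cldn6 and 0.97 for Zeb1, and Vim stayed 2-fold apart at -1.02.

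Fibroblast markers also differed between the libraries. Of 20 fibroblast markers 18 were tested. After LIF withdrawal all 18 lay above both ES libraries, where 48.4% of all genes did, with a median log2 change of 0.71. After division by the FPKM sum 13 lay above and 4 below, with a median of 0.25. Without the 10 highest genes in that sum all 18 lay above. On the deposited scale limma called 4 of the 18 higher after LIF withdrawal, Postn, S100a4, Dcn and Col5a2, where 7.67% of all genes were called. In the embryoid body library limma called 0 of the 18 over all genes, where 0.396% of all genes were called. At unadjusted p under 0.05 the count was 12, where it was 27.7% of all genes. Of the 13 strand-clear markers 5 were called higher, Dcn, Col6a1, Col6a2, Col3a1 and Pdgfrb, where 2.31% of that set were called in either direction. Of the 18 markers 10 lay above both ES libraries and 5 below, where 37.6% and 42.9% of all genes did, with a median log2 change of 0.22. Fap was at 0 in both ES libraries and Lum in ES 2, and neither reached 1 FPKM in any library. The part of fibroblast RNA in the levels of Vim, Cdh2 and Zeb1 was not tested.

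The other genes of junctions and of the transition were taken from 10 lists. Their counts at unadjusted p under 0.05 stand beside 37.2% of all genes after LIF withdrawal and 27.7% in the embryoid body library. Of 13 genes of the TGF-beta pathway, which can drive the transition, all were tested, and 5 had an unadjusted p under 0.05 in each comparison. Limma called 1 of the 13 higher after LIF withdrawal, where 7.67% of all genes were called, and that gene is among those not reported here. In the embryoid body library it called 0, where 0.396% of all genes were called. By size 1 lay 2-fold or more above both ES libraries after LIF withdrawal, where 9.68% of all genes were 2-fold away. In the embryoid body library 1 lay 2-fold or more below both, where 0.734% of all genes did. The median log2 change of the 13 genes was 0.19 after LIF withdrawal and 0.02 in the embryoid body library. Skil, which encodes a co-repressor of SMAD proteins, was at 55.2 FPKM after LIF withdrawal and 52.9 FPKM in the embryoid body library, against 54.7 and 57.3 FPKM in ES cells.

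Among 12 other cadherins 6 were tested, and limma called 0 in either comparison, and 3 had an unadjusted p under 0.05 after LIF withdrawal and 4 in the embryoid body library. Cdh11, a mesenchymal cadherin, was at 17.6 FPKM after LIF withdrawal, against 4.64 and 5.17 FPKM in ES cells (1.65, adjusted p = 0.0526), and it rose when strand-clear genes alone were tested (adjusted p = 0.0179). In the embryoid body library it was at 8.31 FPKM (0.66, adjusted p = 0.152). Cdh6, chosen after its values were seen, was at 1.32 FPKM after LIF withdrawal and 0.890 FPKM in the embryoid body library. In ES cells it was at 0.258 and 0.290 FPKM. Its log2 change after LIF withdrawal was 0.86 (limma adjusted p = 0.0266), short of the size needed for a call. Cdh3, the P-cadherin gene, lies on the same strand as Cdh1, 46.1 kb away, with 2 annotated genes between them. It was at 9.25 FPKM after LIF withdrawal and 11.5 FPKM in the embryoid body library, against 7.82 and 8.02 FPKM in ES cells. In the embryoid body library it lay above both ES libraries, where Cdh1 lay below them.

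Of 10 tested adherens junction partners limma called 0 in each comparison, while 2 and 3 had an unadjusted p under 0.05, and the medians were 0.07 and -0.08. Ctnnb1, the beta-catenin gene, was at 171 FPKM after LIF withdrawal and 214 FPKM in the embryoid body library, against 198 and 229 FPKM in ES cells. Ctnna1, the alpha-catenin gene, was at 112 and 106 FPKM, against 117 and 113 FPKM. The widest differences of this list, named after their values were seen, were those of Nectin2, a nectin gene, at 26.1 FPKM after LIF withdrawal and 19.7 FPKM in the embryoid body library, against 35.9 and 35.2 FPKM in ES cells (log2 changes -0.43 and -0.82, limma adjusted p = 0.0587 and 0.139). Nectin1 was at 16.6 and 7.82 FPKM, against 12.3 and 12.0 FPKM, and Vcl, the vinculin gene, at 56.5 and 35.9 FPKM, against 51.8 and 53.5 FPKM. All 3 overlap genes on the opposite strand, with 0 nt of exon shared for Nectin1 and 3.86% of exon length for Nectin2. Vcl shares 25.5% with Ap3m1, which was at 35.8 FPKM after LIF withdrawal and 31.1 FPKM in the embryoid body library, against 42.7 and 47.8 FPKM in ES cells. The part of Ap3m1 reads in the level of Vcl was not tested. All 14 tight junction and polarity genes were tested, and limma called 0 in each comparison, while 4 and 2 had an unadjusted p under 0.05. Their median was -0.15 after LIF withdrawal and 0.07 in the embryoid body library, where it was -0.02 after division by the FPKM sum. Tjp1, which encodes the scaffold ZO-1, was at 55.4 and 51.8 FPKM, against 49.2 and 51.0 FPKM in ES cells. Patj, chosen after its values were seen, was at 8.11 and 12.7 FPKM, against 16.5 and 19.4 FPKM in ES cells. Its log2 changes were -1.05 and -0.47 (limma adjusted p = 0.0981 and 0.239). It overlaps Gm22625 on the opposite strand, with 0 nt of exon shared.

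Only 5 of 20 other claudins reached the level for testing. Cldn7 was at 9.46 FPKM after LIF withdrawal and 12.0 FPKM in the embryoid body library, against 11.4 and 11.1 FPKM in ES cells, and Cldn12 at 22.5 and 16.5 FPKM, against 22.7 and 20.2 FPKM. Limma called 0 claudins in each comparison over all genes, with 3 and 1 at unadjusted p under 0.05. Cldn15, chosen after its values were seen, was at 0.161 and 1.52 FPKM, against 0.127 and 0.214 FPKM in ES cells, and rose in the embryoid body library in the strand-clear set (adjusted p = 0.0289). Desmosome genes had medians below 0 in both comparisons, -0.30 after LIF withdrawal and -0.27 in the embryoid body library over 6 tested genes, with 0 called by limma and 4 and 2 at unadjusted p under 0.05. Perp, a desmosome membrane protein gene, was at 44.2 and 43.5 FPKM, against 59.9 and 61.3 FPKM in ES cells. Pkp2, a plakophilin gene, was at 20.8 and 14.3 FPKM, against 15.9 and 15.7 FPKM.

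Keratins and other intermediate filaments varied within their lists. Of 11 other keratins 3 were tested, with 0 called by limma and 2 at unadjusted p under 0.05 in each comparison. Krt19 was at 5.19 FPKM after LIF withdrawal and 5.23 FPKM in the embryoid body library, against 8.72 and 9.34 FPKM in ES cells. Krt17 was at 1.26 and 8.33 FPKM, against 3.33 and 2.74 FPKM, and rose in the embryoid body library in the strand-clear set (adjusted p = 0.0336). Of 8 tested intermediate filament genes limma called 0 in each comparison, while 5 and 6 had an unadjusted p under 0.05, and 7 of the 8 lay below both ES libraries in the embryoid body library, where 42.9% of all genes did. Lmnb1, a lamin gene, was at 171 and 160 FPKM, against 192 and 193 FPKM in ES cells, and the neuronal filament gene Ina at 24.4 and 33.1 FPKM, against 36.7 and 35.8 FPKM. Nes, the nestin gene, was chosen after its values were seen: it was at 6.49 and 2.11 FPKM, against 7.11 and 6.92 FPKM, and fell in the embryoid body library in the strand-clear set (adjusted p = 0.0237).

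**Figure D4:**
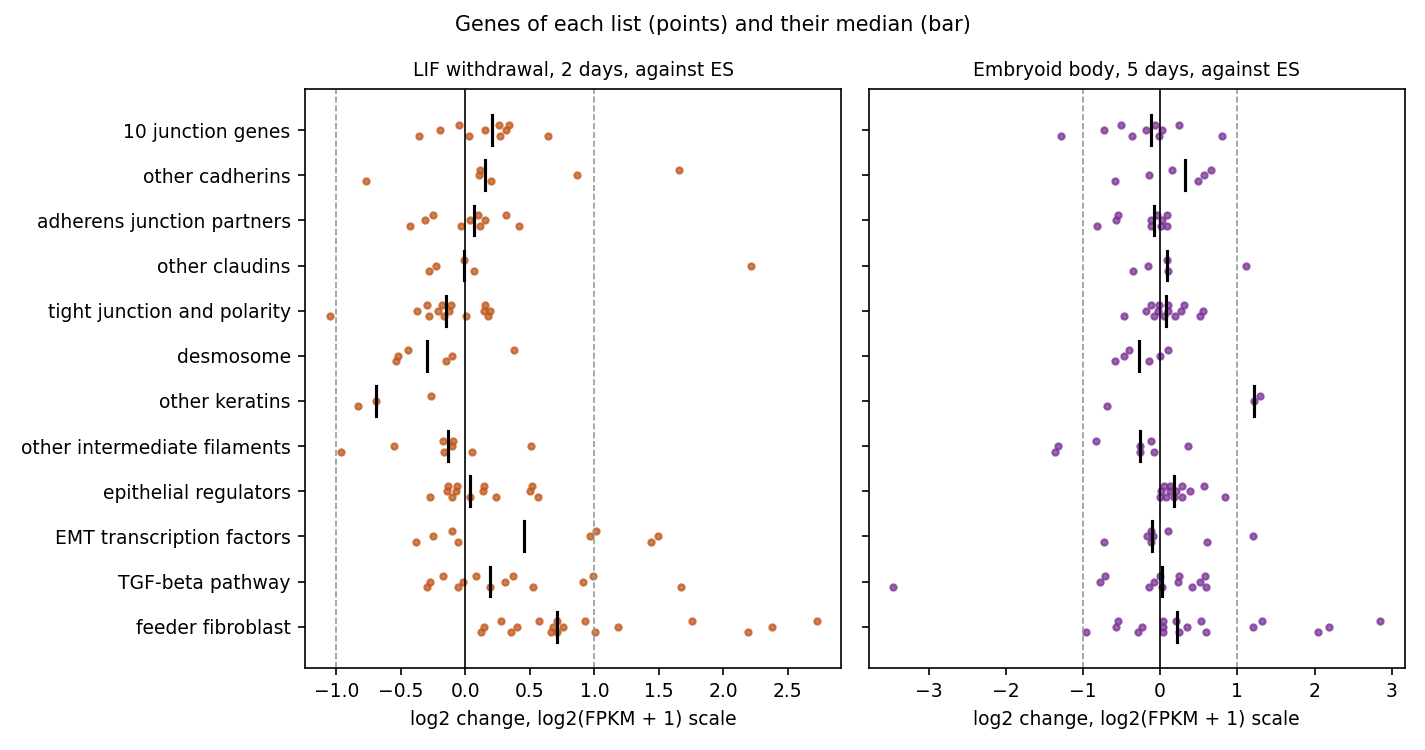
Log2 change of each tested gene (points) and the median (bar) of the 10 junction genes, the 10 lists and the fibroblast markers, after LIF withdrawal (left) and in the embryoid body library (right), each against the mean of the ES libraries. Dashed lines mark a log2 change of 1, and the axes of the panels differ. All 18 fibroblast markers lie above 0 on the left on the deposited scale, and 13 lay above both ES libraries after division by the FPKM sum. Without the 10 highest genes in that sum all 18 did.

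Epithelial regulators lay slightly above ES cells in the embryoid body library. Of 13 tested, 11 were above both ES libraries and 0 below, where 37.6% of all genes were above, and the median log2 change was 0.17. Limma called 0, and 2 had an unadjusted p under 0.05, and after division by the FPKM sum 7 were above and 1 below. Klf5, a transcription factor of ES cells and epithelia, was at 87.8 FPKM in the embryoid body library, against 80.0 and 72.2 FPKM in ES cells, and Spint2, a protease inhibitor gene, at 54.9 FPKM, against 45.4 and 44.3 FPKM. After LIF withdrawal 7 were above and 6 below, but 1 above and 11 below after division by the FPKM sum, with 0 called and 4 at unadjusted p under 0.05. Klf5 was at 70.8 and Spint2 at 49.7 FPKM there.

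Of 8 tested transcription factors of the transition other than Snai1 and Zeb1, limma called 0 in each comparison, while 6 and 4 had an unadjusted p under 0.05. The abundant Tcf4 was at 42.1 FPKM after LIF withdrawal and 47.2 FPKM in the embryoid body library, against 40.5 and 47.3 FPKM in ES cells, and Tcf3 at 36.3 and 38.6 FPKM, against 43.8 and 43.1 FPKM. The next 4 were chosen after their values were seen. Prrx1 was at 21.1 and 6.66 FPKM, against 6.65 and 7.66 FPKM, and Zeb2 at 8.33 and 3.25 FPKM, against 3.94 and 3.32 FPKM. Twist2 was at 4.92 and 3.83 FPKM, against 1.21 and 1.00 FPKM, and Snai2 at 2.08 and 1.40 FPKM, against 0.523 and 0.635 FPKM. After LIF withdrawal these were the 4 of the 8 tested genes that lay above both ES libraries, and 3 lay below, where 48.4% and 36.6% of all genes did. In the embryoid body library 2 of the 8 lay above, Twist2 and Snai2, and 4 below, where 37.6% and 42.9% of all genes did. Prrx1, Zeb2 and Twist2 overlap genes on the opposite strand, and Twist2 shares 46.5% of its exon length with Gm29100, which was at 0.446 FPKM at most.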

How the data were processed

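Total RNA of 4 samples was made into libraries with the VAHTS total RNA kit, per the labels' protocols. The authors deposited 1 table of FPKM values per gene, and the submitters' processing notes name Trimmomatic 0.36, STAR, Cufflinks and the build mm10. Whether strand was used in counting is not given in the sources used here. The table holds 47633 genes, of which 47219 matched GENCODE release M21 by identifier. Depth was estimated from the step between low FPKM values, lowest for the LIF-withdrawal library, and the 95% Poisson intervals built on it cover counting error only.

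From the deposited FPKM, limma 3.58.1 in R 4.3.3 fitted log2(FPKM + 1) with a trend over the 15676 genes that reached 1 FPKM in any library, all 4 libraries in 1 model, with Benjamini-Hochberg adjustment over all genes. The spread has 1 residual degree of freedom, from the ES pair. The procedure was tested on simulated data. The strand-clear set held 6808 tested genes, over which p-values were adjusted anew. Alternatives changed the pseudocount, filter, scaling, trend and libraries.

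The 10 genes and all lists were chosen with earlier results of these data known. From each list the text names the called genes, up to 3, and where none was called the 2 with the highest mean FPKM; some of these are not reported here. Promoters are RefSeq sequences.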

Additional observations from a re-analysis of the deposited data

Results flagged for a closer look

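Vim, Cdh2 and Krt8 each lay above both ES libraries after LIF withdrawal and below both in the embryoid body library. On the log2(FPKM + 1) scale the embryoid body library stood at -1.55 from the LIF-withdrawal library for Vim, -1.37 for Cdh2 and -0.49 for Krt8. The difference was not tested, since each side is 1 library, and both comparisons share the ES libraries. Of all genes 16.8% showed this pattern. After division by the FPKM sum, Vim and Krt8 were below the ES mean in both derived libraries.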

How the results depend on the processing

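No paired analysis was possible because the groups share fewer than 2 replicate numbers. Of 302 values of single genes under alternatives, 259 kept their side of the threshold or moved by less than the ES spread. Of the others 33 moved by more, 2 passed the threshold and 8 were classed as reversed. These 8 are among the values that changed sign. In all 16 changed sign, 6 after LIF withdrawal, 3 in the embryoid body library and 7 between the derived libraries, where division by the FPKM sum turned Cdh1, Epcam, Esrp1, Snai1 and Krt18. Dividing by the FPKM sum reversed 6 genes after LIF withdrawal, giving log2 changes of -0.48 for Epcam, -0.21 for Krt8, -0.57 for Esrp1, -0.37 for Vim, -0.10 for Snai1 and -0.22 for Zeb1, with the median of all genes at -0.51. Without the 10 highest genes in the sum, all 6 kept the sign of the deposited scale. In the embryoid body library it gave Esrp1 -0.062, median-of-ratios scaling gave Epcam 0.017, and leaving out ES 1 gave Epcam 0.018. The 2 values that passed were Vim in the embryoid body library, with adjusted p of 0.0302 without a filter and 0.0176 over strand-clear genes, in a range of 0.0176 to 0.244 over its alternatives, so 1 of the 10 genes was called in each of those settings. Among all genes 138 of 26187 were called without a filter, 104 of them higher. Over strand-clear genes it was 157 of 6808, 104 of them higher. After LIF withdrawal limma called 1203 genes, but 395 with a filter at 5 FPKM and 207 over strand-clear genes, and the count at least 2-fold from both ES libraries was 1517, but 572, 186 and, scaled by the FPKM sum without its 10 highest genes, 2413. In the embryoid body library limma called 62 genes, but 131 at a pseudocount of 0.1, 138 without a filter, 41 with a filter at 5 FPKM, 104 scaled by the FPKM sum, 157 over strand-clear genes, 137 scaled without the 10 highest genes, 0 by limma without a trend (4504 at unadjusted p under 0.05) and 0 by limma fitted without the LIF-withdrawal library (4065 at unadjusted p under 0.05). The count by size there was 371, but 1012 and 571 at pseudocounts of 0.1 and 0.5, 233 at 5 FPKM, 586 by the FPKM sum, 141 over strand-clear genes and 689 without the 10 highest genes. Between the derived libraries 2336 genes were 2-fold apart, but 1005 at 5 FPKM, 326 over strand-clear genes and 3694 without the 10 highest genes, and of the 10 genes 2 were, but 1 by the FPKM sum and 1 over strand-clear genes, a set without Cdh2. Leaving out ES 1 or ES 2 leaves no residual spread and so no test. By size it gave 1743 to 2240 genes after LIF withdrawal and 525 to 1068 in the embryoid body library, where Vim was the 1 of the 10 genes in both. Causes of these shifts were not tested, except that filters and the strand-clear set test fewer genes. The scaling by the FPKM sum without the 10 highest genes and the fits limited to the libraries compared were chosen after seeing the data.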
